A study of Mus musculus with 9 samples.

Results

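The state described here is that of mouse ears given both MC903 and paeonol, set against ears given the alcohol control. The comparison uses 6 of the 9 RNA-seq samples of the study, 3 on each side, and covers every gene with enough counts to test. The samples are ears of C57 mice, and each is labelled by its treatment only. The control group received absolute ethyl alcohol, the MC903 group received MC903, and the paeonol group received MC903 and paeonol at 200 mg/kg. The labels name no strain beyond C57, no age, sex, time point or route, and no vehicle for paeonol. No group received paeonol without MC903, so what paeonol does to an ear without MC903 is not part of these data. The labels do not say whether the replicates are separate animals, so p-values speak of how far these samples scatter, and that scatter may be technical. The MC903 libraries are used below as a marker of where a gene stood without paeonol.

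MC903 (calcipotriol) is a vitamin D analogue that activates the vitamin D receptor of keratinocytes. Painted on mouse skin, it is a common model of atopic dermatitis, because keratinocytes answer it by producing TSLP, a cytokine that starts type 2 inflammation. Paeonol is a phenolic compound of peony root bark that is studied as an anti-inflammatory agent. The study's title places its question in keratinocytes, on an axis of TRPV3 (an ion channel), NF-κB (a transcription factor) and CCL3 (a chemokine). Keratinocytes of the basal layer divide and express the keratins KRT5 and KRT14. As they move outward they switch to KRT1, KRT2 and KRT10, fill with filaggrin-type proteins and build the cornified envelope, the cross-linked protein shell of the dead outer cells. Many of the genes for that shell lie side by side in the epidermal differentiation complex, a cluster of genes on chromosome 3. Wounded or inflamed epidermis also makes the stress keratins KRT6, KRT16 and KRT17, whose genes lie elsewhere.

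The promoters of 4 differentiation genes are shown first, because the results turn on this programme and these genes ended at different places. Involucrin (Ivl) and the late envelope gene Lce1h were lower than control with MC903 and higher than control once paeonol was given. Loricrin (Lor) was lower with MC903 and did not differ from control beyond the test with paeonol. Keratin 10 (Krt10) was called in the paeonol group alone. Each run is the 250 bases before the RefSeq start in GRCm38.p6, written 5′ to 3′ on the gene's strand, which is the minus strand for all 4. Capitals mark the AP-1 motif TGACTCA or its complement TGAGTCA and the TATA motif TATAAA, both searched on both strands.
Ivl, chr3:92573736-92573985: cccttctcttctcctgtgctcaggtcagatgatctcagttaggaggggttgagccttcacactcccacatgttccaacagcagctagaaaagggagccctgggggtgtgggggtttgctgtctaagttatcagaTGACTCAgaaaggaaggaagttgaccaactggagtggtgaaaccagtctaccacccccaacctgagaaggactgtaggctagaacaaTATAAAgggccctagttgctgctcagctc
Lce1h, chr3:92765066-92765315: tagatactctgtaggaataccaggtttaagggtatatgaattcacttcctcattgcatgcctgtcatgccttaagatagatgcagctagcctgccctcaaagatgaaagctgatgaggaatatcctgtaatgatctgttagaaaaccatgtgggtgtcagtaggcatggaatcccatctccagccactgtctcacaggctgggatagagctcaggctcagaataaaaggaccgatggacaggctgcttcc
Lor, chr3:92083143-92083392: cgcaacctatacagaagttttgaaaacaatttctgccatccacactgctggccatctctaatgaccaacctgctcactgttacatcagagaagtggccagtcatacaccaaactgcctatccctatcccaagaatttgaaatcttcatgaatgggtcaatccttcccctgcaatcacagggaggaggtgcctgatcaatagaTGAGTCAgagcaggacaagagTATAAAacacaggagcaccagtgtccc
Krt10, chr11:99389365-99389614: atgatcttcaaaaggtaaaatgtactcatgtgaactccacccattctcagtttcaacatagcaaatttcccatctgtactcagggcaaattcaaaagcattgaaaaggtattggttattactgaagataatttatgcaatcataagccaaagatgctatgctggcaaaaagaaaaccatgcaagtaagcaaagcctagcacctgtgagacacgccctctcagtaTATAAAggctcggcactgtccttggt
The AP-1 motif begins 116 bases before the start of Ivl and 48 bases before that of Lor. TATAAA begins 29 bases before the start of Ivl, 27 before that of Lor and 26 before that of Krt10. The letters of both motifs are absent from the Lce1h window. Windows of this length were found for 36 of the 40 cornified envelope genes tested. Of these, 5 (13.9%) held the AP-1 motif and 12 (33.3%) the TATA motif, beside 4.46% and 12.4% of all 32851 promoter windows. Other raised lists did not show this. Of 7 windows of resting epidermal keratins, 0 held the AP-1 motif and 1 (14.3%) the TATA motif. Of 13 windows of kallikrein proteases and their inhibitors, 0 held the AP-1 motif and 1 (7.69%) the TATA motif. These matches are a description of the letters and no evidence of binding.

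The 9 libraries held 54.26 to 57.75 M estimated counts each, and 21925 genes were tested. Marker genes of ear tissue were present in every library: the tested cartilage markers summed to between 276 and 896 CPM (counts scaled to library size), skeletal muscle markers to between 3390 and 11300, and the keratins of resting epidermis to between 21900 and 69600. Mitochondrial genes made up 4.76 to 5.96% of the counts in control, 6.54 to 6.79% in MC903 and 3.71 to 4.39% in the paeonol group. In principal components of the 6 libraries compared, the first component (43.6% of the variance) separated the groups, and the second (15.6%) separated paeonol libraries 2 and 3. A few libraries stood apart for some genes. Control 2 was high for interferon-type chemokines, with Cxcl10 at 50 CPM against 1.71 and 5.81 in the other controls. Control 2 and paeonol 2 both carried inner root sheath keratins, with Krt25 at 10.1 and 10 CPM against 0.3 to 1.9 in the other libraries of those 2 groups. Paeonol 3 nearly lacked B cell transcripts, with Igkc at 0.134 CPM against 8.43 to 10.2 in the other 5. Of the 653 genes called higher at 2-fold or more, 459 had their highest value among the paeonol libraries in paeonol 3.

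The paeonol group differed widely from control. In edgeR's quasi-likelihood test at an adjusted p under 0.05, 6765 of 21925 genes (30.9%) were called, 3578 higher (16.3%) and 3187 lower (14.5%). Called genes changed by a median of 0.568 on the log2 scale, either way, and 1257 of them changed at least 2-fold, 653 up and 604 down. At 4-fold or more the balance was 223 genes up and 58 down. For MC903 against the same controls 10259 genes (46.8%) were called, and for paeonol against MC903 6502 (29.7%). The split between higher and lower depends on the scaling. Scaled by library totals alone, 28.7% of the called genes were higher in place of 52.9%, with the median of all genes at -0.197 in place of -0.0347 on the log2 scale. In bulk tissue, fewer cells of a type and less RNA per cell cannot be told apart, and this holds for every group of genes below.

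The called genes were sorted by what MC903 did to them in the same fit. The MC903 and the paeonol comparison share their control libraries, so the sorting is a description and its shares are not read as a result. In 3705 genes the change had the sign it had with MC903 and was smaller with paeonol, the residual state. Of these, 1928 did not differ from MC903 beyond the test. In 1275 genes the sign was that of MC903 and the change was at least as large, though only 172 of them were called in that direction against MC903. In 350 genes MC903 and the paeonol group lay on opposite sides of control, 180 of them above control with paeonol and 170 below. The other 1435 genes were not called in MC903 at all. Altogether 1356 genes stood beyond both other groups, with a call in 1 direction against control and against MC903, 746 above both and 610 below. Of the genes called in MC903, 4929 were not called in the paeonol group against control. Of these, 2822 were called between the paeonol group and MC903. The others differed from neither control nor MC903 beyond the test.

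**Figure D1:**
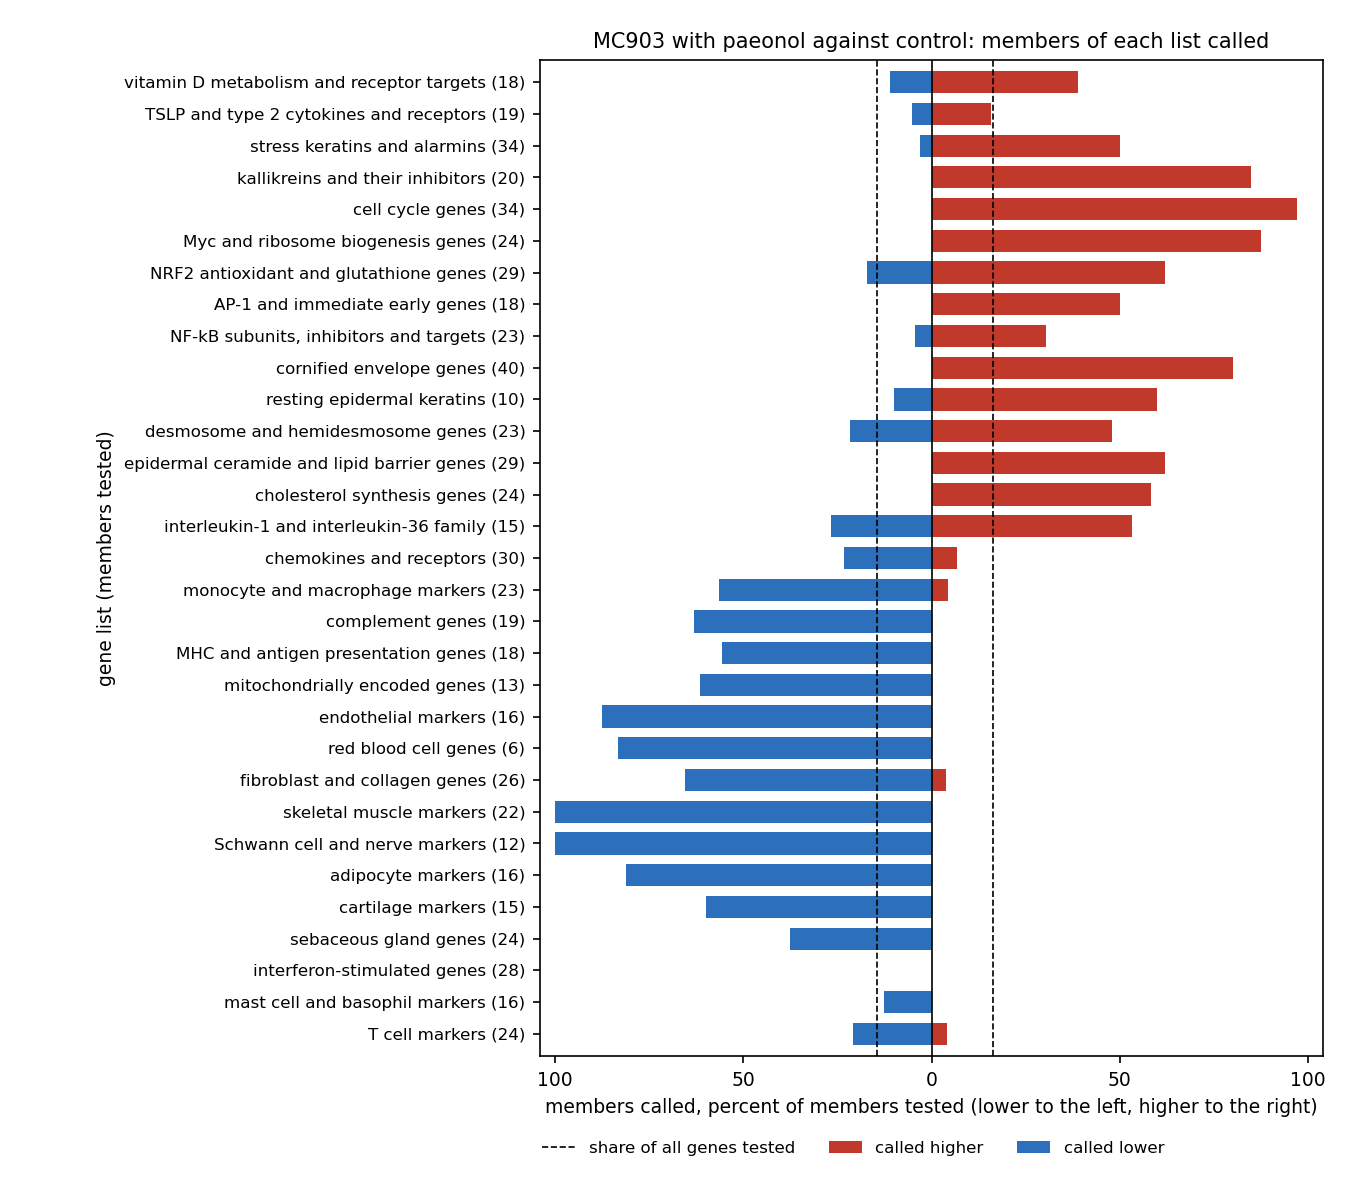
Share of the tested members of 31 gene lists called in MC903 with paeonol against control (edgeR, adjusted p under 0.05), lower to the left and higher to the right, in percent. Dashed lines mark the share of all genes tested, 16.3% higher and 14.5% lower. Cell cycle, kallikrein and cornified envelope genes lie far to the right, and muscle, Schwann cell, endothelial and complement genes to the left.

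The vitamin D response to MC903 was still there. Cyp24a1, the enzyme that breaks down active vitamin D and the standard sign of an active receptor, measured 11.4, 11.6 and 6.98 CPM in the controls. It measured 1170, 1870 and 2800 CPM in the paeonol libraries and 4390 to 4970 in MC903. The groups were far apart. The change was 195-fold (log2 7.61 ± 0.43 SE, edgeR adjusted p = 5.38e-05), beside a drop of 1.24 log2 units from MC903 (adjusted p = 0.0278). S100g, a calcium-binding protein and vitamin D target, had no count in the controls and 1.1, 4.67 and 9.3 CPM with paeonol, which is at least 25.5-fold higher against a floor of 12 counts in each control library. Spp1 (osteopontin) measured 11.1, 10.7 and 7.37 CPM in control and 31.3, 26.7 and 22.1 with paeonol (log2 1.46 ± 0.17, adjusted p = 0.00017). Slc37a2, a sugar phosphate transporter, reached 120, 152 and 236 CPM against 27.3 to 32.7 in control and 97.3 to 119 in MC903. Over the vitamin D list, 7 of 18 tested genes were higher and 2 lower, with a median log2 change of 0.36. The receptor gene Vdr itself was not called (log2 -0.07 ± 0.08, edgeR adjusted p = 0.582, and 0.0398 when scaled by library totals).

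Tslp followed Cyp24a1. Its control values were 6.98, 6.35 and 5.78 CPM and its paeonol values 254, 318 and 516, with 740 to 1470 in MC903. The lowest paeonol library stood far above the highest control, at 56.9-fold on average (log2 5.83 ± 0.42, edgeR adjusted p = 0.000137), and the drop from MC903 was 1.52 log2 units (adjusted p = 0.0149). Of the 19 type 2 cytokine and receptor genes tested, 3 were higher and 1 lower, which is 21.1% beside 30.9% of all genes tested. Their median log2 change was 0.01, which changes sign when scaled by library totals. The 3 higher genes were 1 without control 3 or without paeonol 2. Il4, encoding interleukin 4, lay at 1.1, 1.12 and 0.744 CPM in control and 0.477, 0.609 and 0.383 with paeonol (log2 -1.01 ± 0.37, adjusted p = 0.0617, and 0.0323 when scaled by library totals). Il13 reached at most 0.344 CPM in any library and was not called (adjusted p = 0.704). The interleukin 4 receptor Il4ra averaged 190 CPM in MC903 and measured 65.5, 64.2 and 56.8 with paeonol, inside the control range of 34.1 to 69.3, whose top is control 2. Without control 2 it was higher than control by 0.86 log2 units (adjusted p = 0.000775).

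The largest increases over control included genes of the epidermal differentiation complex and others. Which cells of the ear carried these transcripts was not tested. Akr1d1, a steroid 5-beta-reductase, went from 0.096, 0.115 and 0.152 CPM to 39.5, 45.7 and 99.1, with 130 to 148 in MC903. Its 22 control counts give a ratio of 462 with a counting interval of 212 to 1260. A pseudogene (Gm7463) overlaps it on the same strand, and how shared reads were assigned is not known. Rptn (repetin), an envelope precursor of the epidermal differentiation complex, measured 11.4, 13.6 and 12.5 CPM in control and 843, 1230 and 2370 with paeonol (119-fold, edgeR adjusted p = 0.000104). Its MC903 values of 1180 to 1380 lie inside the paeonol range. Tchh (trichohyalin), a protein of the hair root sheath and of stressed epidermis, behaved alike with 8.2 to 13.8 CPM in control, 367, 617 and 1260 with paeonol and 630 to 756 in MC903. Fxyd4, a regulator of the sodium pump, rose from 0.558 to 0.837 CPM up to 46.8, 66.6 and 118. In each of these 4 genes paeonol 1 was lowest and paeonol 3 highest. Further large increases were in Padi4, Wfdc12 and Sprr2b, at log2 5.45 ± 0.57, 4.62 ± 0.34 and 5.92 ± 0.69. Sprr2b belongs to a family of near-identical copies, so its own share of the reads is uncertain.

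Stress keratins and alarmins, the genes of wounded epidermis, were in part still raised. Of 34 tested, 17 were higher than control, 1 lower and 16 not called, with a median log2 change of 1.11, beside 25 higher and 3 lower in MC903 with a median of 2.56. Against MC903, 17 of the 34 were lower with paeonol and 6 higher, among them Serpinb3a, whose values follow further down. Krt16 measured 112, 360 and 364 CPM in control, 2380, 3100 and 4410 with paeonol and 8480 to 9590 in MC903. Control 1 was the lowest library and the groups were far apart (11.8-fold, edgeR adjusted p = 0.00244). Krt6a was 6.02-fold and Krt6b 9.14-fold above control, and since they are near-identical copies their separate values are uncertain. Krt17 was 1.83-fold above control. Among envelope precursors of the stress response, Sprr1b measured 5.36, 7.12 and 11.8 CPM in control and 133, 171 and 274 with paeonol, with 457 to 547 in MC903. Among antimicrobial genes, Defb4, a beta-defensin, went from 0.112 to 1.22 CPM up to 8.85, 12.2 and 17.2, and Slpi, a leukocyte protease inhibitor, from 5.11 to 8.5 up to 44.7, 62.9 and 106. The calprotectin genes S100a8 and S100a9 were not called (log2 0.39 and 0.60, adjusted p = 0.611 and 0.385). Control 2 held their highest control values, and without it S100a9 was called higher (adjusted p = 0.0492).

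Kallikreins, the serine proteases that cut the links between dead outer cells so that they shed, were mostly higher with paeonol. Of 20 kallikrein and inhibitor genes tested, 17 were higher than control and the other 3 not called, with a median log2 change of 1.80 beside 2.36 in MC903. In the kallikrein cluster of chromosome 7 (43690418 to 43851181 in GRCm38), 10 of 12 tested genes were called, all higher. Klk8 measured 35.2, 30 and 27.9 CPM in control, 98.3, 103 and 120 with paeonol and 193 to 210 in MC903 (log2 1.78 ± 0.10, adjusted p = 4.41e-06). Klk13 measured 11.2, 16.5 and 13.5 CPM in control and 109, 149 and 237 with paeonol, again between both other groups. Klk6 and Klk7, by contrast, were not called against MC903. Klk7, the main chymotrypsin-like enzyme of shedding, read 189 to 273 CPM in control, 648, 704 and 1090 with paeonol and 703 to 763 in MC903. Klk5, which activates the others, was not called in MC903 (adjusted p = 0.0675) and was higher than control with paeonol, at 95.3, 81.7 and 103 CPM against 32.2 to 54.4 in control and 22.8 to 35.9 in MC903 (edgeR adjusted p = 0.00549). Spink5, their inhibitor, stood above both groups at 524, 576 and 742 CPM against 179 to 251 in control and 415 to 456 in MC903.

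Genes of cell division were raised with paeonol as they were with MC903. Of 34 cell cycle genes, 33 were higher than control, with a median log2 change of 0.93, beside 31 with a median of 0.80 in MC903. Against MC903, 6 were called, all higher with paeonol. The summed level was 1860 to 2200 CPM with paeonol and 1800 to 1860 in MC903. Mki67, the proliferation marker Ki-67, measured 144, 131 and 143 CPM in control, 241, 295 and 253 with paeonol and 225 to 264 in MC903. The paeonol libraries all lay above the controls (1.89-fold, edgeR adjusted p = 4.13e-05) and overlapped those of MC903 (adjusted p = 0.386). Rrm2, a subunit of ribonucleotide reductase, went from 18.6, 24.5 and 23.1 CPM to 51.5, 56.7 and 59.1. Mcm5, part of the replicative helicase, rose by 1.37 ± 0.10 log2 units. Its partner Mcm6 was higher than in MC903 as well, at 93.9, 93.3 and 86.5 CPM against 61 to 73.3 there and 47.6 to 53.8 in control. Ccnd1 (cyclin D1) was the member not called, at 98.7 to 109 CPM in control and 94.5 to 106 with paeonol (adjusted p = 0.576, and lower at 0.0266 when scaled by library totals).

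Most growth genes lay between control and MC903. Of 24 Myc and ribosome biogenesis genes, 21 were higher than control with a median log2 change of 0.59, beside 1.01 in MC903. All 21 had a smaller change than with MC903. Ncl (nucleolin), which works in ribosome assembly, measured 429, 437 and 433 CPM in control, 687, 787 and 836 with paeonol and 1080 to 1120 in MC903 (log2 0.83 ± 0.07, edgeR adjusted p = 2.7e-05). Myc went from 49.9 to 59.3 CPM up to 82.3, 91.4 and 107, and Npm1 (nucleophosmin) rose by 0.78 ± 0.07 log2 units. Antioxidant genes of the NRF2 type showed 18 higher and 5 lower of 29. Slc7a11, the cystine importer, measured 4.15, 8.02 and 6.17 CPM in control and 26.7, 25.2 and 31.7 with paeonol, with 45.2 to 54.3 in MC903. Srxn1 (sulfiredoxin) rose by 1.14 ± 0.09 log2 units, and G6pdx, which supplies NADPH, by 1.11 ± 0.08. The 5 lower genes of the list came down to 1 without paeonol 3, 2 without control 3 and 3 without control 1.

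Retinoid genes moved both ways, with 6 of 27 higher and 8 lower, and 5 lower without control 3. Rbp2, a retinol carrier, measured 3.91, 6.58 and 6.25 CPM in control, 46.4, 57.9 and 74.9 with paeonol and 99.9 to 122 in MC903 (edgeR adjusted p = 5.77e-05). Lrat, which stores retinol as ester, went from 1.84 to 2.87 CPM up to 14.8, 24.7 and 45.6. Aldh1a1, which makes retinoic acid, was lower at 17.9, 18.1 and 14.4 CPM against 37.6 to 40.6. Ptgs2 (cyclooxygenase-2), the inducible prostaglandin enzyme, measured 3.46, 5.25 and 3.65 CPM in control and 10.8, 10.7 and 20.4 with paeonol, with 80.6 to 93.7 in MC903. Of the 13 genes for EGF receptor ligands and receptors, 5 were higher and 1 lower, and the higher count was 2 without control 3 or paeonol 3 and 3 without paeonol 2. A pair of ligands differed in their course. Areg (amphiregulin) averaged 61 CPM in MC903 and held 6.09, 12.1 and 16.7 with paeonol against 0.304 to 3.59 in control (adjusted p = 0.0355). That call ended in 8 alternatives, among them without control 3 (0.116) and without paeonol 3 (0.106). Ereg (epiregulin) did not differ from control in MC903 beyond the test, and reached 38.6, 39.3 and 38.4 CPM with paeonol against 22.2, 13.9 and 9.9 in control (adjusted p = 0.00276). Erbb4, a receptor of this family, was lower, at 0.35 to 0.441 CPM against 1.4 to 1.94 in control.

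**Figure D2:**
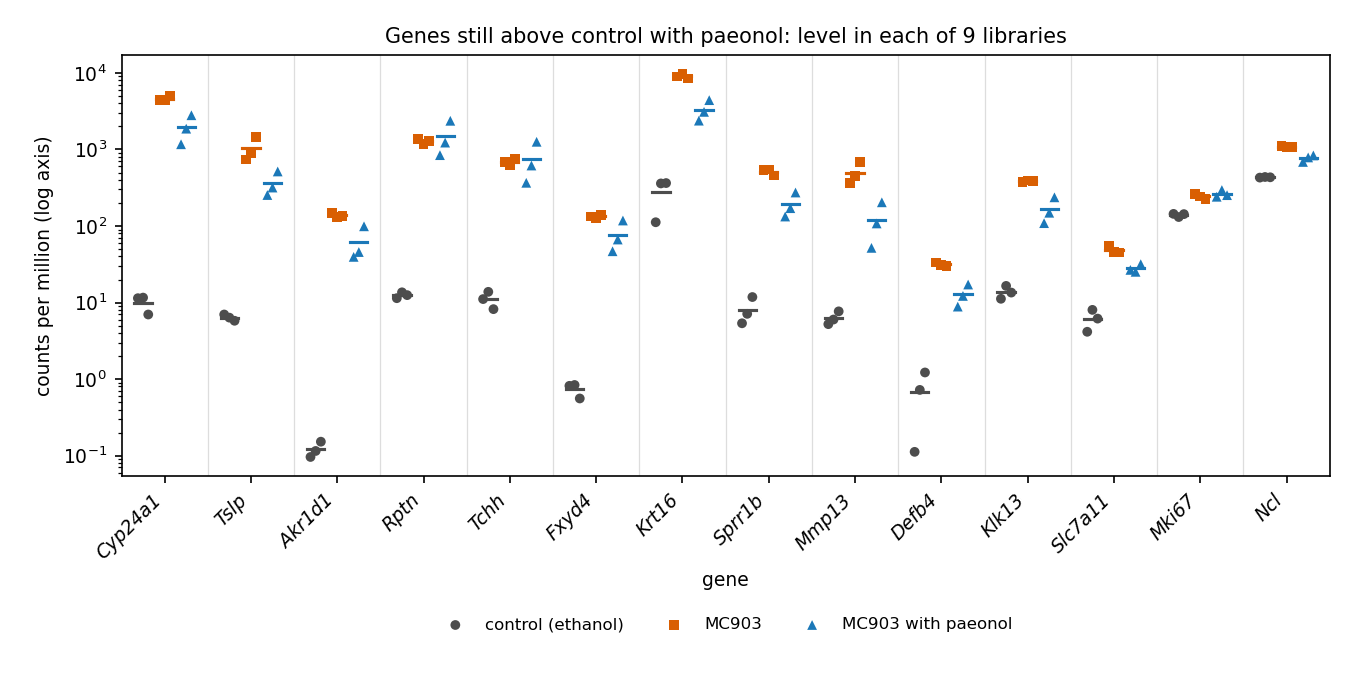
CPM (log axis) of 14 genes in each control, MC903 and MC903 with paeonol library, where points are libraries and short lines group means. The paeonol libraries lie above control for every gene, between control and MC903 for most, and overlap MC903 for Rptn, Tchh and Mki67.

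In RNA of whole ears, the genes of the axis in the study's title came out in 3 different places. Protein levels and NF-κB activity were not measured in these data, and keratinocytes were not separated from other cells. Trpv3, a warmth-sensitive calcium channel of keratinocytes on chromosome 11 (73267388 to 73300363 in GRCm38), measured 55, 46.9 and 55.6 CPM in control, 73.8, 78.2 and 103 with paeonol and 163 to 191 in MC903. It remained above control (1.62-fold, log2 0.69 ± 0.12, edgeR adjusted p = 0.00189). Ccl3 on the same chromosome (83647844 to 83649355), a chemokine that draws macrophages and neutrophils, measured 2.1, 3.26 and 1.44 CPM in control and 11.3 to 19.5 in MC903. With paeonol it was 0.707, 0.332 and 0.575 CPM, under every control library and 4.19-fold lower on average (log2 -2.07 ± 0.37, adjusted p = 0.00187). Its counts were low, at 18 to 40 per paeonol library and 85 to 199 per control library. Ccl4, its close relative with an overlapping receptor use, took the same course, at 0.336, 0.332 and 0.556 CPM with paeonol against 0.777 to 2.38 in control (adjusted p = 0.0241). The counts of Ccl4 were 18 to 29 per paeonol library and 46 to 145 per control library. The call of Ccl4 ended without control 2 (0.0687), paeonol 1 (0.09) or paeonol 2 (0.0932). Their receptor gene Ccr1 averaged 25.3 CPM in MC903, and the paeonol values of 7.07, 3.87 and 4.97 overlapped the control values of 5.19, 9.06 and 4.53 (adjusted p = 0.578).

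NF-κB genes showed small changes that depend on the scaling. Of 23 subunits, inhibitors and targets, 7 were higher and 1 lower, which is 34.8% beside 30.9% of all genes tested. Their median log2 change was 0.19, and scaled by library totals 2 were higher and 6 lower. The 7 were 3 without control 3 and 4 without control 1 or paeonol 3. Nfkb1, the p105 subunit, measured 109, 107 and 102 CPM in control and 121, 120 and 121 with paeonol (1.14-fold, edgeR adjusted p = 0.0272). That call ended without either of control 2 and control 3, without either of paeonol 2 and paeonol 3 (adjusted p = 0.0634 to 0.104) and under library totals (0.774). Rela, the p65 subunit, read 61.7 to 64.2 CPM in control and 75.2, 71.3 and 76.4 with paeonol (1.18-fold, adjusted p = 0.00796, and 0.372 under library totals). Nfkbia, the inhibitor induced by NF-κB itself, measured 65.8, 67.8 and 60.1 CPM in control, 81.2, 76.3 and 111 with paeonol and 131 to 159 in MC903 (1.39-fold, adjusted p = 0.0228). It too lost its call under library totals (0.0881) and without control 1 or control 3 (0.057 and 0.0829). Nfkbiz, an NF-κB cofactor of keratinocytes, was 1.77-fold above control (adjusted p = 0.000431). AP-1 and immediate early genes, a separate set of stress-induced factors, had 9 of 18 higher and the others not called, with Junb at 1.05 ± 0.13 and Fosl2 at 0.62 ± 0.10 log2 units.

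Late keratinocyte differentiation went beyond control. Of 40 cornified envelope genes tested, 32 were higher than control and the other 8 not called, with a median log2 change of 1.08, while in MC903 16 were higher and 18 lower. Of those 32, 13 lay on the other side of control in MC903. The suprabasal keratins stood out. Krt10 measured 4030, 2590 and 2520 CPM in control, 4910, 1970 and 1250 in MC903 and 15800, 18700 and 13800 with paeonol. Krt2 measured 6730, 4740 and 4970 CPM in control, 6600, 2740 and 2070 in MC903 and 20100, 25800 and 20200 with paeonol. In both genes every paeonol library was more than 2 times the highest library of either other group. Krt10 was 5.29-fold (edgeR adjusted p = 0.0152) and Krt2 4.02-fold (adjusted p = 0.0156) above control. Both calls ended without control 2 (adjusted p = 0.0593 and 0.0608) and without control 3 (0.0611 and 0.0614), with the fold nearly as large. Krt1, the partner of KRT10, measured 986 to 1060 CPM in control, 2960 to 5860 in MC903 and 6080, 6010 and 6440 with paeonol (6.0-fold, adjusted p = 0.00014).

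The basal keratins moved less. Krt5 measured 7660, 7660 and 7450 CPM with paeonol against 5990 to 6620 in control (1.19-fold, edgeR adjusted p = 0.00831, and 0.334 when scaled by library totals). Krt14 measured 9310, 9770 and 11100 CPM against 5340 to 5830 in control and 13200 to 14200 in MC903, a residue of 0.86 ± 0.07 log2 units. Krt15, a keratin of quiescent basal and hair follicle stem cells, was the 1 resting keratin called lower, at 834, 615 and 676 CPM against 1460 to 1960 in control and 274 to 299 in MC903.

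Genes for filaggrin-type proteins, which bundle keratin and break down to the skin's moisturizing amino acids, differed among themselves. Flg (filaggrin) measured 593, 398 and 474 CPM in control, 425 to 912 in MC903 and 1800, 1690 and 2010 with paeonol (3.75-fold, edgeR adjusted p = 0.00213). Hrnr (hornerin) measured 895, 683 and 451 CPM in control and 2250, 2540 and 2980 with paeonol (3.83-fold, adjusted p = 0.00343). Neither gene was called in MC903 (adjusted p = 0.249 and 0.58). Flg2, another member, was not called, at 1030, 587 and 501 CPM in control, 28.4 to 55.3 in MC903 and 549, 332 and 474 with paeonol (log2 -0.65 ± 0.38, adjusted p = 0.265, or 0.0353 in the fit with a replicate block). Casp14, the protease that processes filaggrin, rose 4.38-fold (adjusted p = 2.19e-05) and Tgm3, a cross-linking transglutaminase, 2.88-fold (adjusted p = 1.65e-05). Cdsn (corneodesmosin), which glues outer cells together, stood above both groups at 1020, 1110 and 1670 CPM against 192 to 357 in control and 536 to 719 in MC903.

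The genes whose promoters are printed above gave these values. Ivl measured 38.8, 30.9 and 27.6 CPM in control, 24.6, 15.3 and 14.3 in MC903 and 80.1, 71.3 and 82 with paeonol. The rule that named Ivl required its paeonol and control libraries not to overlap, as in 46.4% of all genes tested. The 3 groups of Ivl did not overlap, with MC903 below and paeonol above control (2.40-fold, edgeR adjusted p = 0.00211). Lce1h took the same order, at 69.4, 51 and 53.4 CPM in control, 33.1 to 41 in MC903 and 124, 105 and 149 with paeonol (2.17-fold, adjusted p = 0.000635). Its neighbours Lce1g (2.31-fold) and Lce1f (2.07-fold) are near-identical copies of it, so the 3 are uncertain as separate genes. Lor measured 3270, 2250 and 1930 CPM in control, 360 to 718 in MC903 and 3340, 3270 and 3710 with paeonol, where only the value of control 1 touches the paeonol range (log2 0.47 ± 0.30, adjusted p = 0.293).

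By position, the epidermal differentiation complex on chromosome 3 (92080271 to 93449077 in GRCm38, 1.37 Mb) held 63 tested genes. With paeonol 47 were higher than control and the other 16 not called, with a median log2 change of 1.26. With MC903 alone 29 were higher and 19 lower, with a median of 0.79. The late envelope genes Lce1f, Lce1g and Lce1h were among the 19. Of the 63, 21 were above both control and MC903. The type II keratin cluster on chromosome 15 (101347444 to 101954287) had 11 of 27 tested genes higher and the other 16 not called. The type I cluster on chromosome 11 (99315516 to 100261029) was mixed, with 9 of 37 higher and 4 lower and a median log2 change of 0.04.

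**Figure D3:**
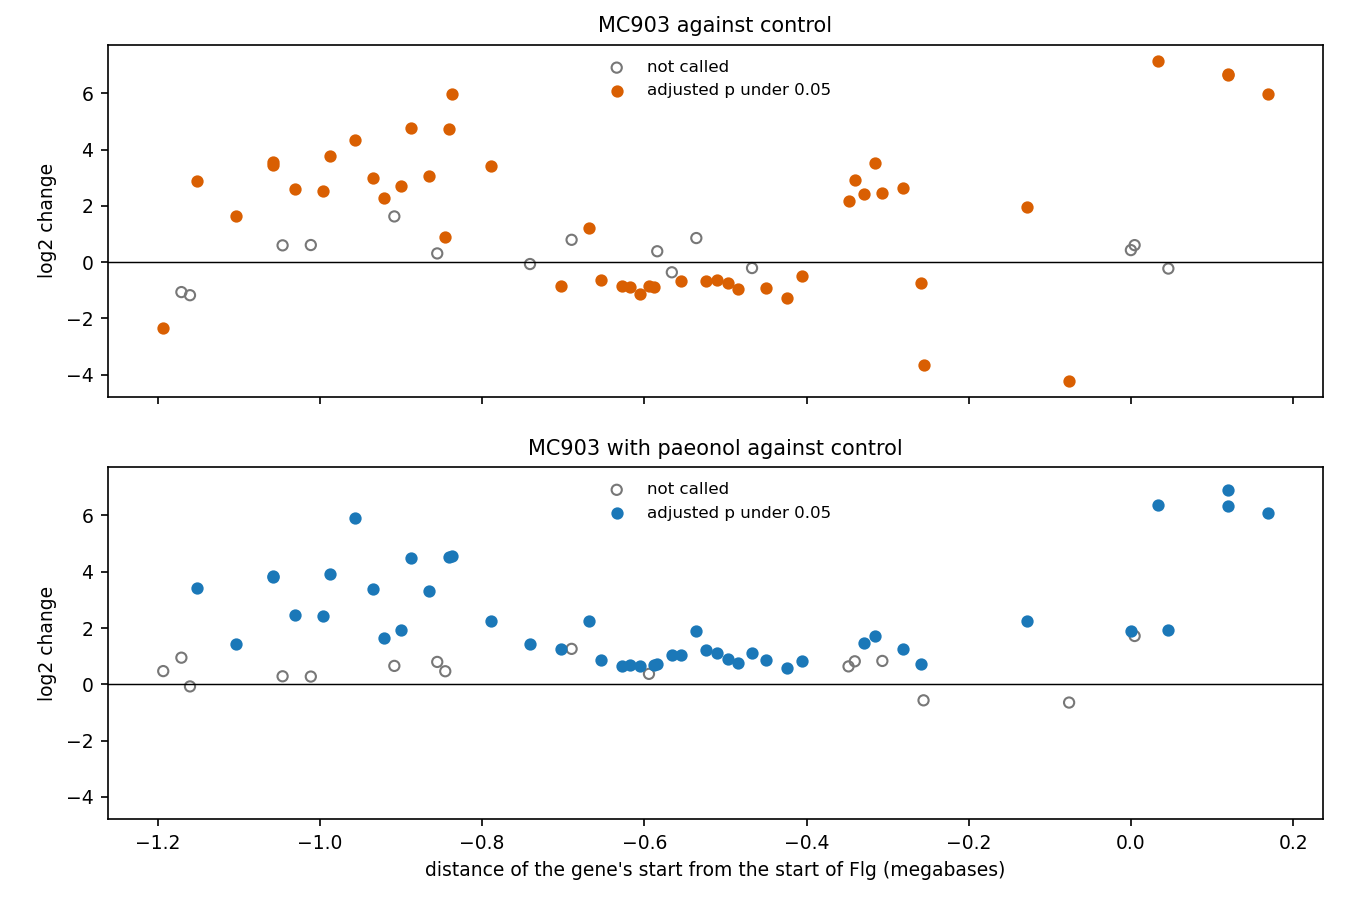
Log2 change against control of 63 genes of the epidermal differentiation complex by the distance of their start from that of Flg in megabases, for MC903 (top) and MC903 with paeonol (bottom), with filled points called at an edgeR adjusted p under 0.05. With paeonol no filled point lies below zero.

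Cell adhesion genes moved both ways. Of 23 desmosome and hemidesmosome genes, 11 were higher, 5 lower and 7 not called. Except for Itga6, an integrin of basal cells at log2 0.22 whose call ended in 9 alternatives, the higher ones were parts of desmosomes, the rivets between keratinocytes. Pkp1 (plakophilin 1) measured 880, 694 and 736 CPM in control and 1740, 1990 and 1930 with paeonol (2.45-fold, edgeR adjusted p = 1.53e-05), with 1580 to 1820 in MC903. Dsc1 (desmocollin 1), of the upper layers, measured 77.5 to 119 CPM in control and 405, 483 and 509 with paeonol. The lower ones belong to the anchorage of basal cells to the dermis, such as Col7a1, the anchoring fibril collagen, at 215, 195 and 196 CPM against 277 to 332 in control and 81.9 to 86.8 in MC903. The lower count of this list was 3 without control 3 or paeonol 2. Of 16 tight junction genes, 5 were higher, 2 lower and 9 not called, with a median log2 change of 0.19, beside 4 higher and 10 lower in MC903. Cldn4 and Cldn1 rose by 1.39 ± 0.18 and 0.53 ± 0.08 log2 units, with Cldn1 below control in MC903. The lower ones were Cldn8, at log2 -1.17 ± 0.19, and Cldn5, a claudin of endothelium, at log2 -0.62 ± 0.18, whose call ended without control 2 (edgeR adjusted p = 0.0795).

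Many genes that make the skin's lipid barrier were higher as well. Of 29 ceramide and lipid barrier genes, 18 were higher than control and the other 11 not called, with a median log2 change of 0.66. In MC903, 10 were higher and 7 lower. Cers3, the ceramide synthase for very long chains, measured 34, 23 and 19.6 CPM in control, 35.1 to 44.8 in MC903 and 62.7, 76.1 and 65.7 with paeonol, above both groups (2.67-fold, edgeR adjusted p = 0.000761). Alox12b, a lipoxygenase needed to attach lipid to the envelope, rose 2.69-fold, and Abhd5, a lipase partner, 1.68-fold. An antisense transcript overlaps Abhd5, and whether the counting used strand is not known. Of 24 cholesterol synthesis genes, 14 were higher and the other 10 not called, with a median log2 change of 0.45, and scaled by library totals 12 were higher and 2 lower. Sc5d, a late enzyme of the pathway, measured 59.7, 52.8 and 55.4 CPM in control, 62.1 to 69.9 in MC903 and 92.3, 101 and 93.8 with paeonol. The 3 groups of Sc5d did not overlap (log2 0.77 ± 0.07, adjusted p = 3.55e-05).

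Cytokines of the interleukin 1 and 36 family moved in opposite directions. Of 15 tested, 8 were higher and 4 lower. The epithelial members named next rose. Il1f6, which encodes interleukin 36 alpha, measured 12.2, 10.9 and 11.3 CPM in control, 7.48, 3.64 and 3.45 in MC903 and 29.5, 25 and 30.9 with paeonol (2.48-fold, edgeR adjusted p = 0.00354). Il1f8, for interleukin 36 beta, rose 2.45-fold and Il1f9, for interleukin 36 gamma, 1.91-fold, and both were above MC903. Il1f5, which encodes the antagonist of the interleukin 36 receptor, rose with them, at 315, 299 and 338 CPM against 108 to 156 in control (2.47-fold). Il1a rose 2.38-fold and Il1rn, the interleukin 1 receptor antagonist, 1.72-fold. Il1b, made mainly by myeloid cells, went the other way, at 12.4, 16.2 and 8.37 CPM in control, 33.6 to 45.3 in MC903 and 7.51, 6.86 and 5.41 with paeonol (1.87-fold lower, adjusted p = 0.0147, and 0.0632 without paeonol 3).

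Among the 746 genes above both control and MC903, those named next were taken for the size of their change or from the fixed lists. Serpinb3a, a protease inhibitor of squamous epithelium, measured 9.07, 14.1 and 11.5 CPM in control, 18.3 to 23.9 in MC903 and 77.5, 89.1 and 82.7 with paeonol (7.18-fold, edgeR adjusted p = 6.57e-06). It has close copies beside it, so its separate value is uncertain. Serpinb5 (maspin) measured 274 to 340 CPM in control and 634, 682 and 680 with paeonol. In the serpin b cluster on chromosome 1 (106861173 to 107610484), 8 of 13 tested genes were higher with paeonol and the other 5 not called, while 4 were higher and 6 lower in MC903. Cxcr2, a chemokine receptor of neutrophils that keratinocytes also carry, measured 3.86, 4.69 and 1.98 CPM in control, 8.33 to 11.5 in MC903 and 17.1, 21.2 and 16.7 with paeonol (5.21-fold, adjusted p = 0.000195). Over the whole neutrophil list, 4 of 18 were higher and 2 lower (33.3% called, beside 30.9% of all genes tested). The summed level of this list was 234 to 530 CPM in control, 1470 to 1790 in MC903 and 620 to 885 with paeonol. Ly6g, Elane and Ngp were too low to test. The part of neutrophils in the value of Cxcr2 was not tested. Slc34a2, a phosphate transporter, Elf5, an epithelial transcription factor, and Mal2, a transcytosis protein, rose 6.99-fold, 6.44-fold and 5.18-fold. Genes above both groups and not called in MC903 included Akr1c18, at 17, 19.7 and 16.3 CPM against 3.69 to 5.05 in control, and the secretoglobin Scgb1b27, at 23.4, 17.6 and 28.9 against 4.73 to 6.5.

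**Figure D4:**
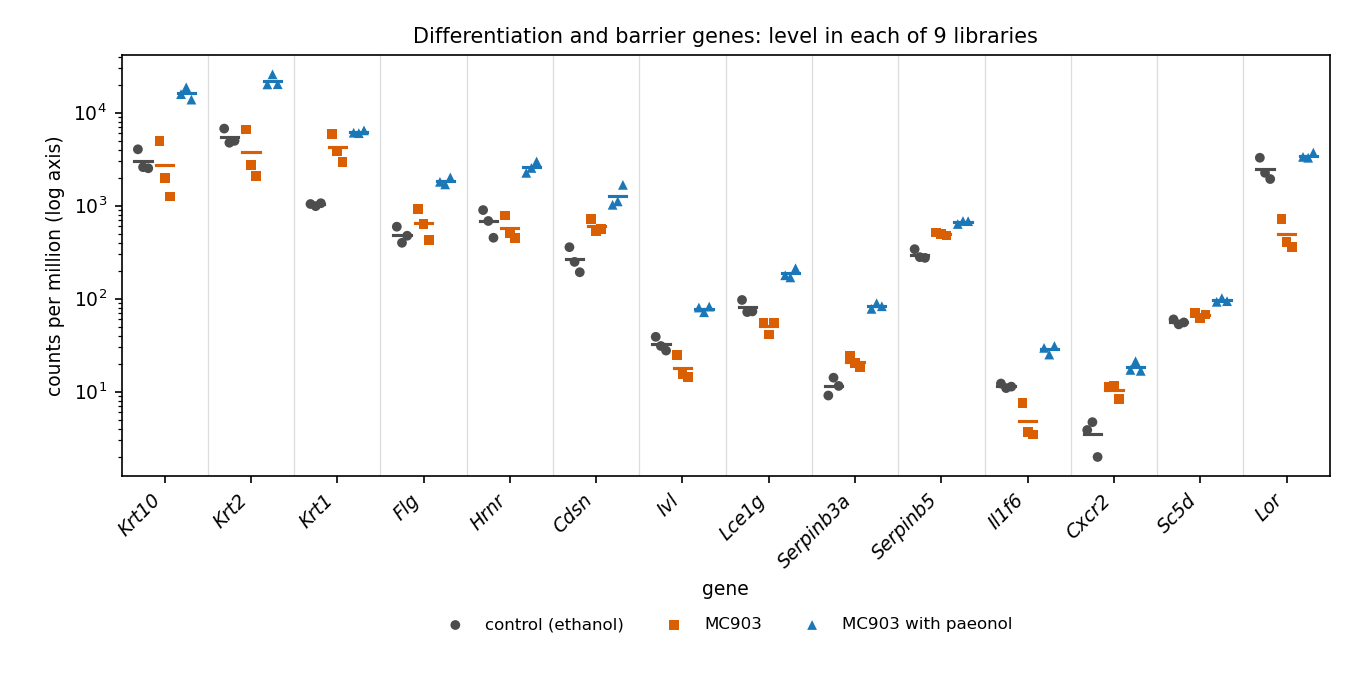
CPM (log axis) of 14 differentiation, barrier and epithelial genes in each of the 9 libraries, where points are libraries and short lines group means. The paeonol libraries are the highest of the 3 groups for all genes shown except Lor, where control 1 and paeonol 2 both read 3270 CPM.

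Most of the macrophage markers ended below control. Of 23 monocyte and macrophage markers, 13 were lower than control and 1 higher, with a median log2 change of -0.46, while 19 were higher in MC903. Their summed level was 1400 to 1520 CPM in control, 2510 to 2800 in MC903 and 919 to 1290 with paeonol. The lower count was 6 without control 2 and 8 without control 3, paeonol 2 or paeonol 3. Cd14, the co-receptor for bacterial lipopolysaccharide, measured 12.2, 12.5 and 10.5 CPM in control, 24.2 to 37.3 in MC903 and 6.31, 4.8 and 5.69 with paeonol (2.10-fold lower, edgeR adjusted p = 0.00066). Tyrobp, a signalling adaptor of myeloid receptors, measured 35.3, 36.8 and 35.7 CPM in control and 26.4, 19.7 and 17.5 with paeonol. Folr2 and Fcna, markers of resident tissue macrophages, were 2.15-fold and 2.49-fold lower, after being raised in MC903. Csf1r, the receptor that macrophages need to survive, was 1.35-fold lower, with an adjusted p of 0.0162 and of 0.0578 without control 1. Mrc1, the mannose receptor of resident macrophages, was not called, at 127, 107 and 79.8 CPM against 111 to 124 in control (adjusted p = 0.421).

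Of 19 complement genes tested, 12 were lower than control and the other 7 not called, with a median log2 change of -0.54, while 10 were higher and 4 lower in MC903. Of the 12, 5 had been above control in MC903, 4 below it and 3 not called there. Serping1, the C1 inhibitor, measured 159, 199 and 146 CPM in control, 169 to 186 in MC903 and 91.7, 110 and 84.2 with paeonol. The paeonol libraries lay under every library of both other groups (1.76-fold lower than control, edgeR adjusted p = 0.000715), and the gene was not called in MC903. C3, the central component, measured 224, 324 and 190 CPM in control and 128, 169 and 131 with paeonol against 702 to 753 in MC903 (adjusted p = 0.0151, and 0.0614 without paeonol 1 and 0.0719 without paeonol 3). C1qa, made by macrophages, was 1.42-fold lower than control (adjusted p = 0.0201, and 0.0714 without control 2 and 0.0622 without control 3).

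Among chemokines and their receptors, 2 of 30 were higher and 7 lower, which is 30.0% called beside 30.9% of all genes tested. The lower count was 11 when scaled by library totals, 4 without the filter on low counts, 3 without control 2 or paeonol 2 and 4 without paeonol 3. In MC903, 14 were higher and 5 lower. Ccl3 and Ccl4 are described above. Ccl21a, the chemokine of lymphatic vessels, measured 140 to 167 CPM in control and 95.9, 83.9 and 62.2 with paeonol (1.92-fold lower), and it has near-identical copies. Ccl20, which draws CCR6-bearing cells and is made by keratinocytes, was the member higher beside Cxcr2, at 12.7, 14.9 and 29.3 CPM against 4.4 to 7.1 in control (log2 1.83 ± 0.55, edgeR adjusted p = 0.0408). That call ended in 7 alternatives, among them without any 1 control (0.0687 to 0.131) and without paeonol 3 (0.12). Ccl6, a macrophage chemokine, averaged 243 CPM in MC903 and lay at 45.8, 34.1 and 35.9 with paeonol against 41.3 to 46.8 in control (adjusted p = 0.167, and lower at 0.0324 when scaled by library totals and 0.0156 without paeonol 1).

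Antigen presentation genes were lower or not called. Of 18 tested, 10 were lower and the other 8 not called, with a median log2 change of -0.69. H2-K1, a class I gene that was not called in MC903, measured 645, 909 and 759 CPM in control, 568 to 839 in MC903 and 479, 411 and 446 with paeonol (1.73-fold lower, edgeR adjusted p = 0.00566). B2m, the shared light chain, was 1.61-fold lower. Cd74, the invariant chain of class II, was lower in both treated groups and measured 893 to 1040 CPM in control, 389 to 499 in MC903 and 547, 592 and 529 with paeonol. H2-K1 has many close relatives, so reads may be split among them. Of 28 interferon-stimulated genes, 0 were called in edgeR, where 3 were higher and 1 lower at an unadjusted p under 0.05, and DESeq2 called 2 higher and 1 lower. Without control 2, which was high for many of these genes, 5 were called higher.

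Vessel and blood genes were lower than control. Of 16 endothelial markers, 14 were lower than control and the other 2 not called, with a median log2 change of -0.69, and 9 were lower without control 2. Their summed level was 471 to 561 CPM in control, 548 to 590 in MC903 and 273 to 380 with paeonol. Pecam1 (CD31), the junction protein of all endothelium, measured 92.7, 106 and 86.4 CPM in control, 107 to 117 in MC903 and 70.2, 61.4 and 46.8 with paeonol (1.60-fold lower, edgeR adjusted p = 0.00357). Cdh5 (VE-cadherin) measured 30.6, 37.3 and 31.1 CPM in control and 22.4, 17.2 and 16.5 with paeonol. Lyve1, of lymphatic vessels and some macrophages, was 1.62-fold lower after a rise in MC903. Globin transcripts, which report the blood left in the tissue, were among the largest decreases. Hbb-bs measured 46.9, 30 and 27.1 CPM in control, 16.1, 13.5 and 7.52 in MC903 and 1.08, 1.83 and 0.556 with paeonol (29.9-fold lower, adjusted p = 0.000314). Hba-a1 fell 10.3-fold, and both globins have near-identical copies. Of 6 red blood cell genes, 5 were lower and 1 not called, with summed levels of 89.1 to 150 CPM in control and 20.1 to 24.2 with paeonol. The other listed members were too low to test. The part of residual blood in the other results was not tested.

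Mitochondrially encoded genes were also lower, with 8 of 13 called lower and the other 5 not called, and a median log2 change of -0.30, where 7 were higher in MC903. This count was 1 without control 3 or paeonol 2, 2 without paeonol 1 and 4 in a fit of the 6 libraries alone. mt-Nd2, a subunit of complex I, measured 2160, 2510 and 2770 CPM in control and 1720, 1700 and 2080 with paeonol (1.35-fold lower, edgeR adjusted p = 0.00551). Glucocorticoid-induced genes, of which 16 of 18 were higher in MC903, had 6 higher and 5 lower with paeonol, with a median log2 change of 0.06. Of the called ones, 7 had a smaller change of the same sign as in MC903. A further 3 lay on the other side of control from MC903, and 1 was not called in MC903. The members named next are from the lower side. Fkbp5, a sensitive target of the glucocorticoid receptor, measured 42.7, 39.3 and 41.3 CPM in control, 125 to 146 in MC903 and 33.7, 25.5 and 30.4 with paeonol (1.38-fold lower, adjusted p = 0.0041). Klf9 was 1.48-fold lower after a rise in MC903.

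**Figure D5:**
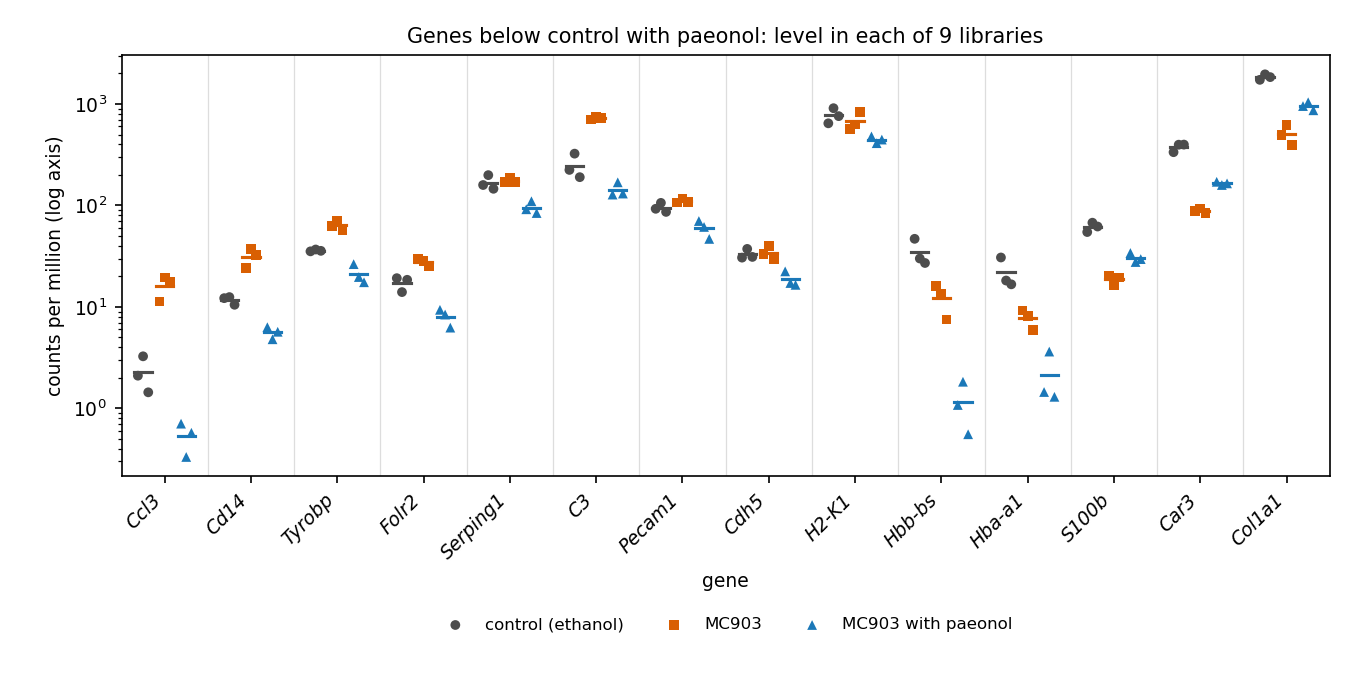
CPM (log axis) of 14 genes in each of the 9 libraries, where points are libraries and short lines group means. The paeonol libraries lie below control for every gene and below MC903 as well for the genes from Ccl3 to Hba-a1, while S100b, Car3 and Col1a1 lie between MC903 and control.

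The deeper tissues of the ear stayed below control. All 22 skeletal muscle markers were lower, with a median log2 change of -1.21 beside -1.73 in MC903, and their summed level was 7520 to 11300 CPM in control, 3390 to 4310 in MC903 and 3930 to 5210 with paeonol. Actn3, of fast fibres, measured 45, 70 and 87.8 CPM in control and 10.3, 16.7 and 23.8 with paeonol (3.99-fold lower, edgeR adjusted p = 0.00361). All 12 Schwann cell and nerve markers tested were lower, with Nefl and Nefm too low to test. S100b, a calcium-binding protein of Schwann cells that fat and cartilage cells also express, measured 54.7, 67.6 and 62 CPM in control, 16.3 to 20.3 in MC903 and 34, 27.7 and 29.6 with paeonol (log2 -1.01 ± 0.11, adjusted p = 0.000105). The gene Dip2a overlaps it on the other strand, so some of its reads may be shared. Of 16 adipocyte markers 13 were lower and the other 3 not called, and Plin1, which coats fat droplets, measured 28.4 to 45.4 CPM in control and 15, 13.9 and 12.5 with paeonol. Of 15 cartilage markers 9 were lower and the other 6 not called, and Col11a2 was 2.42-fold lower. The summed levels of these lists are shares of each library's counts, so they also move when other genes take more of the library.

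Dermal and sebaceous genes were lower in part. Of 26 fibroblast and collagen genes, 17 were lower and 1 higher, with a median log2 change of -0.58. Col1a1 measured 1730, 1960 and 1840 CPM in control, 397 to 620 in MC903 and 954, 1040 and 867 with paeonol (1.94-fold lower, edgeR adjusted p = 0.00087). The member higher was Tnc (tenascin C), a matrix protein of healing wounds, at 180, 156 and 147 CPM against 98.5 to 126. Mmp13, a collagenase, stayed raised at 51.8, 108 and 204 CPM against 5.22 to 7.67 in control, while Mmp3 was 1.41-fold lower than control after a rise in MC903. Of 24 sebaceous gland genes, 9 were lower and the other 15 not called, with a median log2 change of -0.42, beside 18 lower in MC903. Elovl5, a fatty acid elongase, measured 149, 182 and 197 CPM in control, 33 to 36.6 in MC903 and 79.4, 72 and 91.5 with paeonol (2.17-fold lower, adjusted p = 6.18e-05). Among the strongest decreases were Paqr7, a membrane progestin receptor, at 118, 44.8 and 57.7 CPM against 324 to 498 in control, and Serpina3b at 11, 9.61 and 11.8 against 29.6 to 55.8. Both had been lower still in MC903.

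Lymphoid markers were uneven. Of 24 T cell markers, 1 was higher and 5 lower (25.0% called, beside 30.9% of all genes tested). The lower count of T cell markers was 9 when scaled by library totals, 3 without control 1 or control 2 and 2 without paeonol 3. Trdc, the constant chain of the gamma-delta T cell receptor that marks the resident T cells of mouse epidermis, measured 19.6, 20.6 and 18.5 CPM in control, 2.43 to 2.7 in MC903 and 8.55, 10.9 and 8.05 with paeonol (2.13-fold lower, edgeR adjusted p = 0.000206). Trbc2, of alpha-beta T cells, was the member higher, at 19.2, 25.5 and 25.4 CPM against 12.5 to 15.4. Of 18 Langerhans and dendritic cell markers, 4 were lower and 14 not called (22.2% called, beside 30.9% of all genes tested). The lower count was 2 to 7 with each library left out in turn. Flt3, a marker of dendritic cells, was 3.28-fold lower, at 1.92 to 2.31 CPM against 6.29 to 7.27. Of 12 B and plasma cell markers 1 was called (8.33%). It was Sdc1, which keratinocytes also express, at 390, 461 and 436 CPM against 215 to 231.

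Other genes of the MC903 response were not called against control. Hdc, which makes histamine, averaged 43.5 CPM in MC903 and measured 6.73, 5.98 and 5.89 with paeonol against 6.11, 5.71 and 4.9 in control (edgeR adjusted p = 0.443). Chil3, a chitinase-like protein of alternatively activated macrophages, averaged 76.8 CPM in MC903 and measured 2.42, 1.09 and 0.671 against 1.49, 2.05 and 1.15 in control (adjusted p = 0.868). Tnfsf11 (RANKL) averaged 13.7 CPM in MC903 and lay below 1 in all 6 libraries compared (adjusted p = 0.903). Il33, an alarm cytokine of epithelium, measured 94.3, 113 and 125 CPM against 89.3 to 100 in control, with an edgeR adjusted p of 0.0704, which was 0.0486 in DESeq2 and 0.00586 without paeonol 1. Gata3, a differentiation factor of epidermis and hair, averaged 25.4 CPM in MC903 and measured 71.8, 73.6 and 70.8 with paeonol against 62.2 to 78.5 in control (adjusted p = 0.944). Of 16 mast cell and basophil markers, 2 were lower and 14 not called (12.5% called, beside 30.9% of all genes tested). In MC903, 8 of them were higher. A p-value above the threshold does not show that these genes are equal in both groups.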

How the data were processed

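Ear RNA of 9 samples was sequenced after oligo(dT) selection and dUTP marking of the second strand, from RNA with an integrity number above 7.0, per the labels' protocols. Per the submitters' processing notes, the tools named are StringTie 1.3.4d, HISAT2 2.0.4 and Cutadapt, and the build named is GRCm38. The table deposited by the authors holds estimated counts as whole numbers, not scaled between libraries. Rounding and the use of strand in counting are steps not given in the sources used here. Low values pile up at multiples of 4, so 12 counts per library served as the floor for genes at 0. Intervals and floors cover counting error only. Totals were 54.26 to 57.75 M per library. Of 55401 features, 33888 had any count and 21925 passed filterByExpr (minimum count 10, total 15). Symbols come from GENCODE M21, and 55141 features matched.

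All 9 libraries were fitted in edgeR 4.0.16 (R 4.3.3, data.table version 1.17.8) with TMM factors of 0.942 to 1.09, 1 coefficient per group and a robust two-sided quasi-likelihood test, with genes called where the p adjusted by Benjamini-Hochberg was below 0.05. Standard errors were approximated from the log2 change and its F value. CPM use TMM-adjusted library sizes. The procedure was tested on simulated data. Replicate pairs differed beyond counting noise (chi-square per degree of freedom 6.98 to 15.7 on counts divided by 4), so none was merged. The comparison and the 52 gene lists (1030 genes, 1027 matched, 986 tested) were chosen with earlier results of these data known, so lists are described by counts and medians, with no set test. Named genes were a fixed set of 10 of the study's axis and model. To these were added the 10 largest changes each way whose mean log2 CPM was 2 or more, with no overlap of libraries. Under the same limits, the 5 largest each way were named among genes beyond MC903, across control or not called in MC903. These were also called against MC903. The rest were the 5 largest each way kept at the MC903 level, and the 3 smallest p-values of each list. Other list members were named after their values were seen, and some members that the rule names are not reported here. Promoter sequences come from RefSeq. Alternatives were DESeq2 1.42.0, other scalings and filters, a fit of 6 libraries, a replicate block, counts divided by 4 and leaving out each library.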

Additional observations from a re-analysis of the deposited data

How the results depend on the processing

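Of the totals and sorted groups of genes, the following moved by more than 1.5 times. Scaled by library totals, 2155 genes were called higher and 5354 lower in place of 3578 and 3187. The 350 genes on the other side of control were 200 without control 2, 216 without control 3 and 225 without paeonol 2. The 1435 genes not called in MC903 were 940 without paeonol 3. With each library left out in turn, 5216 to 6710 genes were called, 2879 to 3590 higher and 2313 to 3171 lower. The residual group then held 2924 to 3666 genes, the group at or past MC903 977 to 1559, the group across control 200 to 363, the group not called in MC903 940 to 1711, and genes beyond both groups 906 to 1336. DESeq2 called 7523 genes and edgeR 7125 on counts divided by 4. With the replicate number as a block, edgeR called 6673 genes (3537 higher and 3136 lower). The labels do not say that a number is shared, and deviations of same-numbered control and paeonol libraries correlated at -0.011, 0.04 and 0.00148, so the numbers were not taken as pairs. Of 264 genes followed through these alternatives, 234 were called and 32 lost the call under at least 1 alternative. No gene turned its direction where it was called in the main fit or in that alternative. Turns of genes called in neither were not counted. The fit of 6 libraries gives no sorting by MC903. A gene left out by an alternative's filter has no value there, such as Il13 where a mean CPM of at least 1 was required. Totals are similar between libraries, so depth limits only the genes near the floor.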
